A study of Mus musculus with 3 samples.

Results

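Granulocyte-monocyte progenitor-like cells with moderate Elane were selected from single-cell transcriptomes of mouse bone marrow by 3 transcripts. A cell was a member when Elane, Ctsg and Ms4a3 together made up at least 20 of every 10000 unique molecular identifiers (UMIs, each a counted transcript molecule) and Elane alone made up less than 70. The rule selected 1934 of 21251 cells. Of these, 1366 came from the Spop-deleted library, 466 from the library that also lacked Myd88 and 102 from the wild-type library. The 144 cells at or over the Elane limit (92, 35 and 17 in the same order) were set aside as Elane-high cells and serve as a comparison.

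The sorted population was LSK, bone marrow cells that lack lineage markers and carry Sca-1 and Kit, among which stem cells and multipotent progenitors are found. One Chromium 3' library was made for each of 3 genotypes: WT is Spop(+/+) Myd88 (+/+), KO is Spop(D/D) Myd88(+/+) and DKO is Spop(D/D) Myd88(-/-). SPOP is the substrate-binding part of a ubiquitin ligase and MyD88 relays signals from receptors of the Toll-like and interleukin-1 families, and the series asks whether SPOP restrains blood cell production through MyD88. The labels used here give no Cre driver, age, sex or number of animals. With 1 library per genotype there was no replicate, so no test was made. Values are printed with exact 95% intervals that cover counting error only: Poisson for a level, conditional binomial for a ratio and Clopper-Pearson for a share of cells.

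Granulocyte-monocyte progenitors give rise to neutrophils and monocytes. At this stage neutrophil elastase (Elane), cathepsin G (Ctsg), proteinase 3 (Prtn3) and myeloperoxidase (Mpo) are made in bulk and packed into azurophil granules, the first granules of the lineage. The transcription factors PU.1 (Spi1) and C/EBP-alpha (Cebpa) open this programme, after which Gfi1 and C/EBP-epsilon (Cebpe) favour the neutrophil route and IRF8 and KLF4 the monocyte route. Progenitors of this kind normally carry little Sca-1 and fall outside the LSK gate.

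Short promoter stretches are shown first because PU.1 is a known activator of granule protease genes and the genes below were all high in the members. In the RefSeq promoter table (GRCm38.p6), the letters GAGGAAGT, a PU.1-type sequence searched on both strands, lay within 250 bases before the listed start of Elane, Prtn3, Mpo and the monocyte surface gene Ly6c2. The motif is in capitals within 30 bases read 5′ to 3′ along the gene. It began 85 bases before the listed start of Elane, 95 before Prtn3, 224 before Mpo and 108 before the first of the Ly6c2 starts. Another annotation, given with the processing, places the Elane start nearer to the motif.
Elane (chr10:79886216-79886245, plus strand): cgtgtcccaggGAGGAAGTagggctgtggc
Prtn3 (chr10:79879561-79879590, plus strand): caaactggaagGAGGAAGTgggacccacag
Mpo (chr11:87793549-87793578, plus strand): gtggagagagaGAGGAAGTtgcctttgtcc
Ly6c2 (chr15:75112061-75112090, minus strand): atgttggccctGAGGAAGTaagaaccaaaa

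These letters stood in 802 of 32851 promoter windows of that length (2.44%). Among the 15 genes highest in the KO members, 11 had an entry in the table and 3 of those held the letters: Ly6c2, Mpo and Prtn3. Unlike the share of windows, this counts genes: the 11 genes had 16 windows, and a gene counted when any held the letters. Of the 3 rule genes, Elane held them, and Ctsg and Ms4a3 had none in this window. A C/EBP-type sequence, TTGCNNAA, stood before Dmkn, Lcn2 and Slpi and in 9.56% of all windows. The motifs were chosen after the sequences had been seen, and a match describes letters, not binding.

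Members made up 27.8% of KO cells (26.5 to 29.0), 5.69% of DKO cells (5.20 to 6.22) and 1.25% of WT cells (1.02 to 1.52). The libraries also differed in depth, with a median of 17319 UMIs per cell in KO, 12404.5 in DKO and 9245 in WT. Their totals were 101393024 UMIs in KO, 109920419 in DKO and 85700749 in WT. Members carried more UMIs than the other cells of their library, with medians of 32864 against 14628 in KO, 20418 against 12060 in DKO and 16370.5 against 9201 in WT. The KO members showed a median of 4956.5 genes and a median mitochondrial share of 2.68%, against 3423 and 2.90% in other KO cells. The libraries shared 46, 83 and 54 cell barcodes pair by pair, and 1 of these barcodes marked a member in both of its libraries. Over whole libraries, Myd88 stood at 25.8 UMIs per 1000000 UMIs (CPM) in KO, 4.47 in DKO and 13.7 in WT. Spop stood at 63.1, 77.1 and 70.7, and as a 3' tag it may lie outside the deleted part. Xist was at 0 CPM in KO, 1537 in DKO and 0.187 in WT, and the Y-linked Ddx3y at 32.2, 0 and 43.9. Genotype cannot be told apart from library and depth in any pair of libraries, nor from sex where DKO is compared.

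The values that chose the members are given as a description. In KO members the median was 14.8 per 10000 UMIs for Elane (0 to 69.95), 25.5 for Ctsg and 11.8 for Ms4a3, and the sum had a median of 51.6. The sum was lower in the other libraries, with medians of 30.3 in DKO and 26.1 in WT. Ctsg contributed most to the sum in 1011 of 1366 KO members, 443 of 466 DKO members and 88 of 102 WT members. Elane had no UMI in 12 KO, 158 DKO and 30 WT members, and Ms4a3 had none in 7, 138 and 45. Ctsg alone reached 20 in 978 KO, 417 DKO and 73 WT members, which is most of the members of each library.

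Cells close to the limits were unevenly spread. Sums of 20 to 25 were found in 118 KO members (8.64%), 140 DKO members (30.04%) and 45 WT members (44.1%). In KO, 146 cells lay just outside at 15 to 20, 31 members had Elane of 60 to 70 and 29 cells had Elane of 70 to 80. A sum of at least 50 was reached by 714 KO members (14.5% of KO cells), 90 DKO members (1.10%) and 16 WT members (0.196%). Among 198 KO cells whose erythroid genes exceeded 1% of UMIs, the median sum was 0.696 and 1 cell was a member. The part of free RNA in the droplets was not tested in any library.

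**Figure D1:**
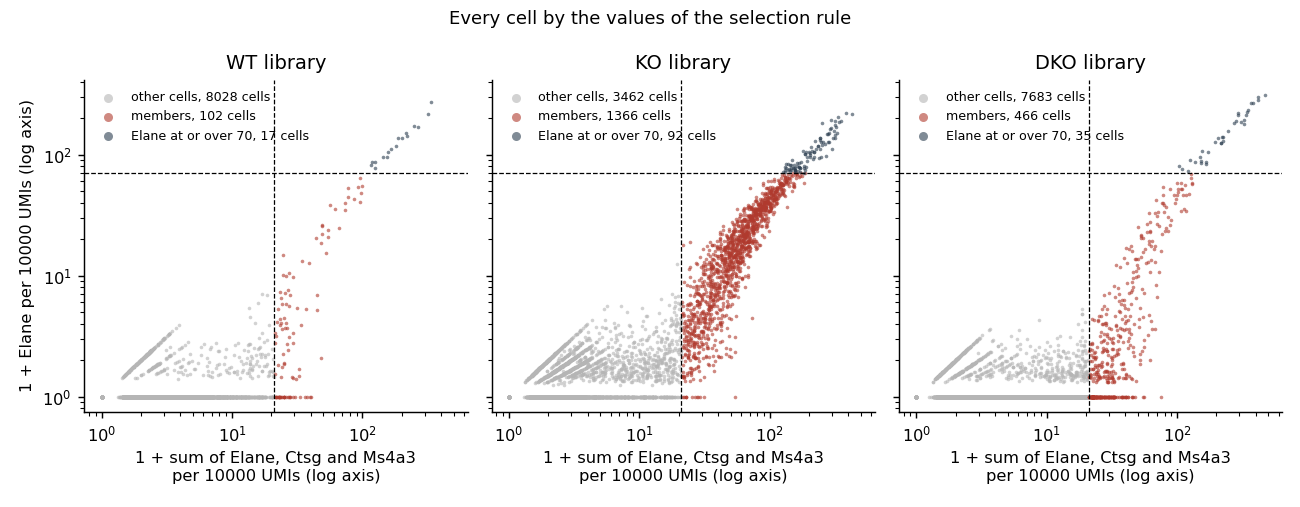
Each point is a cell of 1 library, with the sum of Elane, Ctsg and Ms4a3 on the horizontal axis and Elane on the vertical axis, both as 1 plus UMIs per 10000 on log axes. The lines mark the limits of 20 and 70 that select 1366 KO, 466 DKO and 102 WT members, and the Elane values of DKO and WT members reach down to 0 more often than those of KO.

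Trem3, a myeloid activating receptor, and Ccr2, the chemokine receptor that brings monocytes out of the marrow, were given with the name as its markers. The rule did not use them. As they came with the name, they describe the members and are no independent check of it. Trem3 stood at 162 CPM in KO members and 32.2 in other KO cells, at 40.6 and 4.49 in DKO, and at 24.6 and 1.86 in WT. Ccr2 stood at 103 and 17.8 CPM in KO, 29.6 and 3.23 in DKO, and 16.2 and 1.70 in WT. Both markers were thus higher in members than in other cells of each library, and the order of the members was KO, DKO, WT.

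Shares of cells with a UMI were read after each cell was thinned to 5500 UMIs, which left out 2 WT members, 1 DKO member and no KO member. Trem3 was then seen in 51.4% of KO members (48.7 to 54.1; 91.4% before thinning), 6.11% of other KO cells (12.9% before) and 1.52% of the erythroid-rich KO cells, whose median depth was 17107.5 UMIs. It was seen in 17.6% of DKO members and 1.03% of other DKO cells, and in 12% of WT members and 0.502% of other WT cells. Ccr2 gave 38.4% of KO members, 5.29% of other KO cells, 1.52% of erythroid-rich cells, 11.8% of DKO members and 10% of WT members. Other DKO and WT cells gave 1.51% and 0.625% for Ccr2. Of KO Elane-high cells, 81.5% showed Trem3 and 9.78% Ccr2, so Trem3 is not particular to the members. By the share of members alone, these markers describe WT and DKO members less well, as most of those showed neither marker at this depth. Against other cells of the same library, both markers were seen more often in members of all 3 libraries.

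Genes of basophils and mast cells were unevenly present, and these cells also express granule proteases. A set of 9 such genes reached 5 per 10000 UMIs in 50 KO members (3.66%) against 125 other KO cells (3.52%). The share was 24.5% of DKO members (114 cells) against 4.03% of other DKO cells, and 4.9% of WT members (5 cells) against 0.820%. Mcpt8, a basophil protease, stood at 277 CPM in DKO members and 26.7 in other DKO cells, at 217 and 13.8 in WT, and at 85.0 and 25.9 in KO. All 576 Prss34 UMIs of the WT members came from 1 cell. The part of these cells in the contrasts within DKO and within WT was not tested.

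**Figure D2:**
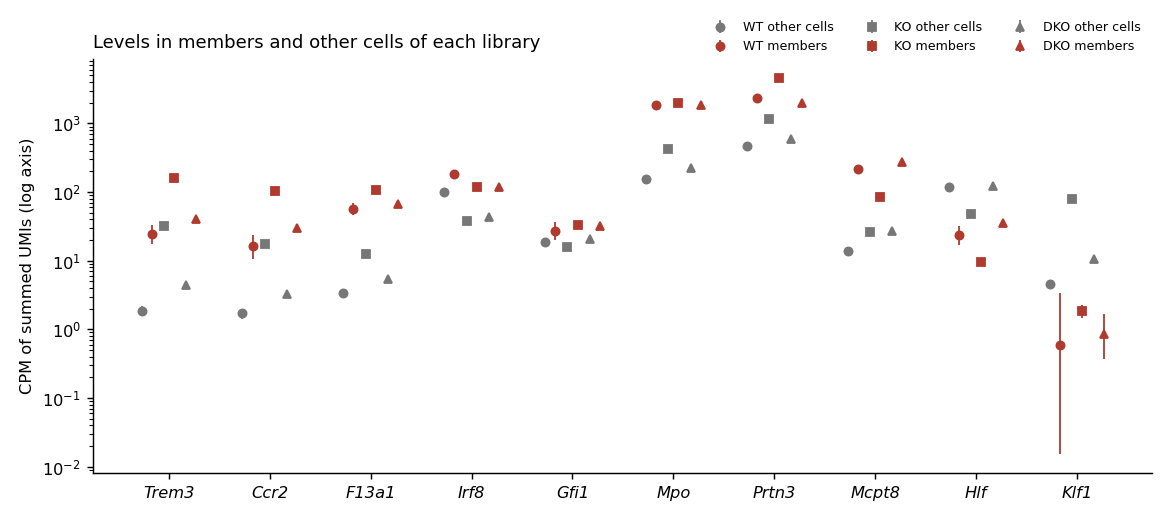
Levels of 10 genes in CPM on a log axis with 95% Poisson intervals, for members and other cells of each library. Trem3, Ccr2 and F13a1 are higher in members than in other cells of all 3 libraries, and Mcpt8 is highest in DKO members.

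The KO members were compared with the other 3554 KO cells to see what else they expressed. Of 4898 genes with a mean of at least 20 CPM, 107 were at least 2-fold higher in members (2.18%) and 227 at least 2-fold lower (4.63%), the rule genes left out. Scaling changes this balance: TMM gave 169 higher and 176 lower, and median-ratio scaling gave 185 and 169. The median log2 ratio over all genes was -0.04 with total UMIs, 0.11 with TMM and 0.14 with median ratios. Because Elane, Ctsg and Ms4a3 were counted in these same cells, the comparison describes the selected cells and tests nothing.

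The highest ratios belonged to monocyte and neutrophil precursor genes together. F13a1, the coagulation factor XIII subunit made by monocytes, stood at 106 CPM in members and 12.4 in other cells (8.57-fold, 7.92 to 9.28). Ccr2 was 5.78-fold higher (5.40 to 6.19) and Trem3 5.02-fold (4.77 to 5.28). Slpi, a secreted inhibitor of elastase and cathepsin G, stood at 109 and 18.8 CPM. Haptoglobin (Hp) stood at 272 and 60.02, and the siderophore-binding lipocalin Lcn2 at 147 and 43.1. Ly6c2, the surface antigen of classical monocytes, stood at 296 and 66.8, with the limit that 3' counts may be split with its near-identical neighbour Ly6c1, and the annexin Anxa3 at 176 and 39.6. The rest of the 15 were Mpo (1987 and 422), Prtn3 (4558 and 1177), Cebpa (103 and 29.8), Mcpt8, Dmkn (85.7 and 19.1), the chaperone Fkbp11 (135 and 38.1) and the vesicle adaptor Ap3s1 (604 and 184).

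The 92 Elane-high cells among the others carried much of their signal for these genes. Without them 16 of the named single-gene ratios moved by over 1.5 times. These 16 include the rule genes Elane, Ctsg and Ms4a3, whose own counts set these cells apart. Ly6c2 was then 27.5-fold higher in members, Fcgr3 24.1-fold, Dmkn 20.7-fold, Trem3 14.4-fold, Mpo 13.7-fold, Hp 12.1-fold, Slpi 10.4-fold, Cybb 8.87-fold, Anxa3 8.86-fold and Prtn3 6.63-fold. F13a1 and Ccr2 moved by less than that factor. Set against the KO cells with a sum under 5 alone, 37 moved, again with the rule genes that define the sum among them. F13a1 was then 28.8-fold, Ccr2 18.6-fold, Trem3 47.2-fold and Irf8 5.53-fold higher. The members' levels themselves do not depend on this choice.

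The lowest ratios included genes of other lineages, but not these alone. S100a9 and S100a8, which stand on the neutrophil list below, were also among the lowest, at 7.46-fold and 7.04-fold lower in members. So was the interferon-stimulated gene Isg15, at 6.66-fold lower. Car1, an erythroid carbonic anhydrase, stood at 8.74 CPM in members and 543 in other cells (62.1-fold lower), Bex4 was 50.9-fold lower, Blvrb 23.3-fold and Car2 18.8-fold. Apoe stood at 6.27 and 105. Ctla2a, a protease inhibitor of early progenitors, stood at 52.4 and 366. Platelet factor 4 (Pf4) was 16.4-fold lower, and 1 member held 510 of its 804 member UMIs. Without that cell it was 44.8-fold lower.

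**Figure D3:**
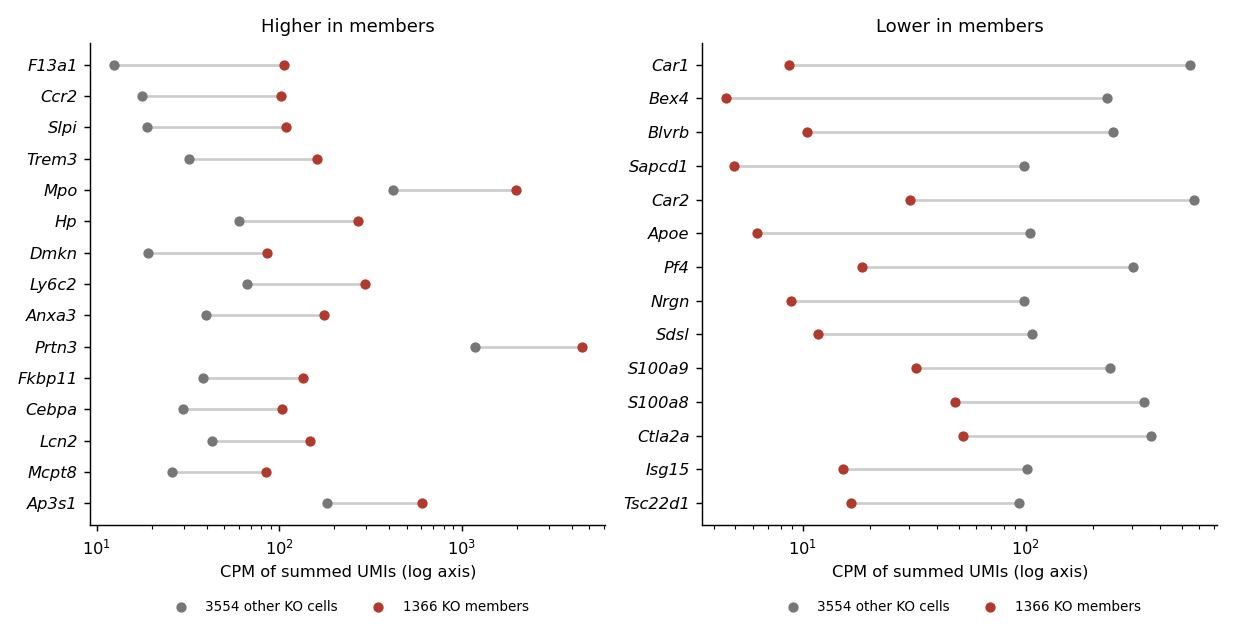
CPM on log axes in KO members (coloured points) and in other KO cells (grey points), joined by a line for each gene, for the 15 genes with the highest ratios on the left and 14 of the 15 with the lowest on the right. The gap is widest for F13a1 on the left and for Car1 and Bex4 on the right.

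Azurophil granule genes, other than the rule genes, were higher in part. Of 12 measured, 5 were at least 2-fold higher and 1 lower, with a median log2 ratio of 0.34. Besides Mpo and Prtn3, the cystatin Cst7 stood at 280 and 126 CPM. A gene counted as measured in a list at a mean of 5 CPM, and of all 8629 genes at that level 2.23% were 2-fold or more higher in members and 7.94% lower. All lists below are read against these shares, and some genes stand on more than 1 list.

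Genes of the later, specific granules and of calprotectin did not move as 1 group: 2 of 10 were higher and 5 lower, with a median of -1.26. That median was -0.33 with equal weight per cell, -0.35 after thinning and -0.52 without the Elane-high cells. Hp and Lcn2 were higher, while the calprotectin subunits S100a8 and S100a9 and the granule peptides Camp and Ngp were lower. A single KO member, with 13733 UMIs, held 1459 of the 2110 S100a8 UMIs of all KO members, 1184 of 1402 for S100a9, 356 of 392 for Camp and 101 of 130 for Ngp. S100a8 was 7.04-fold lower with that cell, 22.8-fold lower without it and 2.32-fold lower at equal weight per cell. S100a9 was 7.46-fold lower with it and 48.0-fold without. In the other KO cells, 24 cells held 92.3% of S100a8, and 21 of these were Elane-high. Without that member and the Elane-high cells, S100a8 stood at 14.9 CPM in members and 167 in other cells (11.2-fold lower). The 3 cells of the 24 that were not Elane-high stay in this value for the other cells. With the same cells left out, Hp stood at 271 and 22.5 and Lcn2 at 147 and 29.2. Counted by cells, an S100a8 UMI was found in 27.2% of KO members and 11.96% of other KO cells, and after thinning in 7.17% (5.86 to 8.67) and 5.40% (4.68 to 6.20), against 4.55% of the erythroid-rich cells. The lower S100a8 level thus goes with few cells of very high S100a8 among the others, not with fewer members that hold a UMI.

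Of the NADPH oxidase, which makes the oxidative burst of phagocytes, 3 of 6 genes were higher and none lower. The membrane subunit Cybb stood at 30.8 and 6.10 CPM (5.05-fold), and the cytosolic subunits Ncf1 and Ncf4 were 2.32-fold and 2.09-fold higher. The partner subunit Cyba was near equality at 1.02-fold. Rac2, the small GTPase of the complex, stood at 318 and 321 CPM.

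Transcription factors of both myeloid routes were higher in the members. Of 16 measured, 6 were at least 2-fold higher and 2 lower, with a median of 0.56. Irf8 stood at 119 and 38.2 CPM (3.12-fold), Gfi1 at 33.1 and 16.0, and Spi1 at 189 and 96.7. Cebpb, a C/EBP factor of induced granulocyte output, was 3.16-fold higher and the leucine zipper factor Nfil3 3.21-fold. The immediate early gene Egr1 was 12.1-fold lower.

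Among receptors 4 of 20 were higher and 3 lower. The Fc-gamma receptors Fcgr3 and Fcgr2b were 3.17-fold and 3.11-fold higher and the macrophage colony-stimulating factor receptor Csf1r 2.97-fold. The sort markers differed too. Ly6a, which encodes Sca-1, stood at 35.7 CPM in members and 123 in other KO cells, at 24.0 and 95.6 in DKO, and at 21.03 and 91.8 in WT. Kit stood at 34.4 and 46.8 in KO. After thinning, a Ly6a UMI was found in 15.7% of KO members (54.9% before) and 40.0% of other KO cells (60.2% before).

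Of 11 measured genes of the Myd88 pathway, none was at least 2-fold higher and 2 were lower. Myd88 stood at 32.6 CPM in KO members and 20.7 in other KO cells (1.58-fold), at 3.52 and 4.55 in DKO, and at 16.2 and 13.6 in WT. The interleukin-33 receptor Il1rl1 was 22.9-fold lower in KO members, or 41.6-fold without members rich in basophil and mast genes, and the NF-kB inhibitor gene Nfkbia 2.27-fold. Interferon-stimulated genes were lower in 17 of 27 and higher in 0, with a median of -1.45. Irf7, their inducing factor, was 10.5-fold lower, Isg15 6.66-fold, Zbp1 6.52-fold and Rtp4 5.45-fold. Ifit1 was 6.49-fold lower, and 10.8-fold without 1 cell.

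Stem and multipotent progenitor genes were lower in 13 of 18 and higher in 0, with a median of -2.29. Esam, an adhesion molecule of stem cells, was 20.6-fold lower, Mllt3 8.08-fold and Mecom 7.98-fold. The stem cell factor Hlf stood at 9.497 and 47.3 CPM. Cd34 was close, at 150 and 164.

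Genes for protein folding in the endoplasmic reticulum were higher in 8 of 23 and lower in 1, with a median of 0.90. Calreticulin (Calr) stood at 1475 and 593 CPM, the chaperone Hspa5 at 562 and 233, and its partner Sdf2l1 at 461 and 162. Hyou1 was 2.72-fold higher. Ddit3, the death-linked factor of the stress response, was 2.23-fold lower. Glycolysis genes were higher in 4 of 16 and lower in 2, with a median of 0.70. Pgam1 stood at 845 and 304 CPM, Pfkp was 2.61-fold and Pkm 2.07-fold higher, and the hexokinase Hk1 2.05-fold and the glucose carrier Slc2a3 2.30-fold lower.

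Markers of other cell types were mostly lower. Erythroid genes were lower in 15 of 16 and summed to 208.6 CPM in members and 2686 in other KO cells. The exception was the transferrin receptor Tfrc, at 115 and 47.8. Megakaryocyte genes were lower in 9 of 11, dendritic genes in 5 of 8 and lymphoid-primed genes in 4 of 8. The platelet glycoprotein gene Gp1bb was 37.6-fold lower, and Dntt of lymphoid priming 27.6-fold. Among antigen presentation genes, H2-Aa stood at 2.47 CPM in members and 59.7 in other cells, and Cd74, the invariant chain, at 2.13 and 47.6. The B lineage gene Cd79a was at 0 in KO members, where 3 counts would be 0.0687 CPM. Basophil and mast genes were mixed, with 2 of 7 higher and 3 lower. Of the eosinophil list the 1 measured gene was lower, and the B lineage, T and NK, and stromal lists had 1 measured gene each, within 2-fold. The macrophage list had none measured. Erythroid-rich cells also carried part of the contrast: without others whose erythroid genes passed 0.3% of UMIs, a limit chosen after seeing the data, the interferon median was -0.80 and the erythroid median -2.13. Car1 was then 3.72-fold lower in members, Bex4 7.76-fold, Blvrb 3.22-fold and Car2 8.35-fold, and Irf7 5.64-fold, Isg15 2.86-fold, Zbp1 2.22-fold, Ifit1 3.07-fold, Il1rl1 6.32-fold, Mllt3 3.81-fold and H2-Aa 13.9-fold. Without the cells of highest doublet score, Gp1bb was 104-fold and Pf4 58.8-fold lower.

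Monocyte genes were the list most often higher, with 9 of 15 at least 2-fold higher and 1 lower (median 1.57). Tifab was 6.81-fold higher and Ly86 3.88-fold. Of the neutrophil list, 6 of 15 were higher and 5 lower (median 0.57). The lower ones are the terminal granule genes described above and Chil3.

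**Figure D4:**
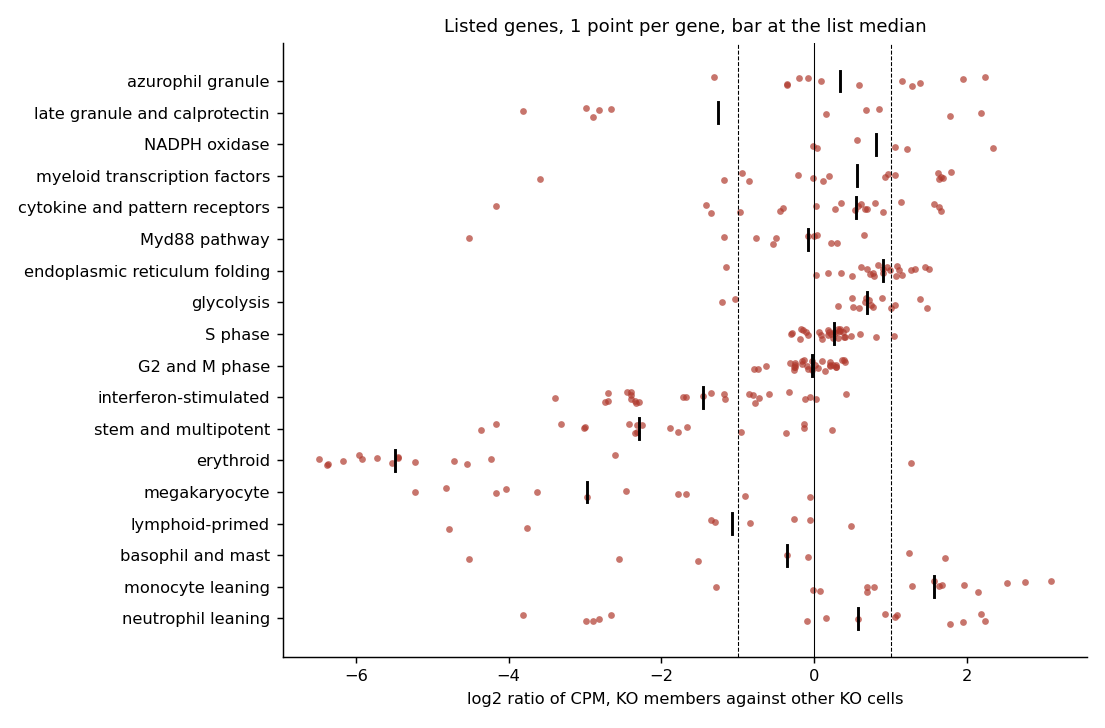
Log2 ratio of KO members to other KO cells for each measured gene of 18 lists, with a bar at the list median and lines at 2-fold either way. Monocyte, endoplasmic reticulum and glycolysis genes lie mostly above 0, and erythroid, megakaryocyte, stem and interferon genes mostly below.

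The same contrast in the other libraries gave fewer genes past 2-fold. In DKO 43 of 5158 genes were higher in members (0.834%) and 86 lower (1.67%), and in WT 54 of 5072 (1.06%) and 164 (3.23%). Over 4490 genes measured in all 3 libraries, 74 were higher in KO members (1.65%), 48 in WT (1.07%) and 37 in DKO (0.824%). Of these, 40 were shared by KO and WT (54.1% of the KO list, 83.3% of the WT list) and 36 by KO and DKO (48.6% and 97.3%). The 32 higher in all 3 included Cebpa, F13a1, Hp, Ly6c2, Mpo and Calr. For lower genes, KO had 177 (3.94%), WT 90 (2%) and DKO 44 (0.98%), with 59 shared by KO and WT (33.3% and 65.6%) and 43 by KO and DKO (24.3% and 97.7%). Of the 4490 genes, none past 2-fold in KO was past 2-fold in the opposite direction in WT or DKO. These genes had a mean of at least 20 CPM in each library, and genes below that level were not compared in this way. These libraries share no cells, but the same 3 rule genes chose the members in each.

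Lists repeated this in part. At their level of 5 CPM, 0.951% of all genes were higher and 4.01% lower in DKO members, and 1.43% and 7.08% in WT members. Stem genes were lower in 13 of 20 in both DKO and WT, and interferon genes in 9 of 28 and 9 of 25. Monocyte genes were higher in 9 of 13 in DKO and 7 of 15 in WT. Folding genes were higher in 2 of 23 and 3 of 23. Basophil and mast genes differed from KO, with 6 of 7 higher in DKO (median 1.29) and 5 of 6 in WT (median 3.36). Cebpb was near equality in DKO (3.20 and 2.95 CPM) and WT (5.41 and 6.01), unlike in KO (27.1 and 8.56).

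Within the KO members, levels changed with Elane, which the rule bounds. In members with Elane under 10 per 10000 (511 cells), 10 to 35 (615) and 35 to 70 (240), and in the 92 Elane-high cells beyond the limit, Cebpe stood at 7.22, 23.4, 66.8 and 192 CPM. Gfi1 stood at 25.9, 29.8, 52.5 and 80.7, and Trem3 at 111, 170, 225 and 347. Irf8 was similar in the first bins and lower beyond, at 125, 130, 84.9 and 22.2, and Ccr2 stood at 124, 105, 64.1 and 30.8. Flt3, a receptor of early progenitors, stood at 36.0, 13.4, 4.43 and 3.33, and Cd34 at 215, 131, 86.7 and 37.4, with both genes chosen after their values were seen. Cebpa was level across the members, at 103, 103 and 104, and 95.7 beyond. Ly6a stood at 51.3, 29.4, 24.7 and 11.6.

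The Elane-high KO cells, with a median of 40597.5 UMIs, meet the same limit on the sum and are set apart from members by the Elane limit alone. The members exceeded them by at least 2-fold in 46 of 4634 genes (0.993%) and fell below by as much in 105 (2.27%). Irf8 was 5.36-fold higher in members (4.30 to 6.78), Cd34 3.99-fold, the progenitor factor Sox4 3.55-fold, Ifitm1 3.40-fold, Ccr2 3.34-fold and the monocyte gene Ms4a6c 3.16-fold. S100a8 was 60.8-fold lower in members and 197-fold without the single S100a8-rich cell, and S100a9 40.7-fold and 262-fold. On the other side, 1 Elane-high cell held 2619 of 10583 S100a8 UMIs, and 1 held 2128 of 4714 S100a9 UMIs. Without that top cell the folds were 46.2 for S100a8 and 22.6 for S100a9. At equal weight per cell they were 33.5 and 20.5. Cebpe was 7.15-fold lower, the granule protein Pglyrp1 5.52-fold, the granule tetraspanin Cd63 5.31-fold, the glutathione transferase Gstm1 4.51-fold and Fcgr3 4.42-fold. The neutrophil genes named here were thus lower in members than in Elane-high cells, and the monocyte and progenitor genes named here higher. Late granule genes were lower in 10 of 11 (median -2.94) and neutrophil genes in 13 of 16 (median -2.32). Monocyte genes were higher in 7 of 14 and lower in 2, and stem genes higher in 7 of 13. Summed over its genes, the monocyte list stood lower in members, at 1210 CPM against 1665 in Elane-high cells. At this level filter 2.49% of all genes were higher and 2.44% lower.

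The neutrophil or monocyte leaning of each KO member was scored as the mean standardised log level of 16 neutrophil genes minus that of 18 monocyte genes, none of them rule genes. The 455 cells with the highest scores form the neutrophil-leaning group and the 455 with the lowest the monocyte-leaning group, with 456 between. These groups are ranges of 1 score, not cell types: 188 and 155 cells lay within 0.1 of the limits. Across the 1366 cells the neutrophil and the monocyte score had a Spearman correlation of -0.04, and both come from the same counts of each cell. The S100a8-rich cell scored 10.8 and the next highest 1.997, so list genes are given without it.

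Each list gene was compared after the score had been rebuilt without that gene. Cebpe stood at 60.7 CPM in the neutrophil-leaning and 4.56 in the monocyte-leaning group (13.3-fold, 10.4 to 17.2). Pglyrp1 stood at 93.3 and 22.5, and Gfi1 at 53.1 and 15.8 (3.37-fold, 2.92 to 3.91). Lcn2 was 1.82-fold and the granulocyte colony-stimulating factor receptor Csf3r 1.69-fold higher, while Mpo (1.42-fold) and Prtn3 (1.08-fold) differed little. S100a8 was 2.79-fold higher without the single cell and 14.3-fold with it, S100a9 1.45-fold and 22.2-fold, and Camp 1.27-fold and 33.8-fold. Without that cell, S100a9 rests on 84 against 63 counts (1.03 to 2.05) and Camp on 14 against 12 (0.546 to 3.01). Both were then under a mean of 5 CPM, and the interval of Camp covers equality. Hp, placed on the neutrophil list, was 1.38-fold lower on the neutrophil side at 236 and 325 CPM. At low counts, Mmp8 and Chil3 were also lower on the neutrophil side, with 0 against 69 and 10 against 39 counts. In all, 4 of 10 neutrophil genes measured at a mean of 5 CPM were at least 2-fold higher on their own side and 9 of 10 above equality.

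The monocyte genes separated more often. Of 17 measured, 13 were at least 2-fold higher in the monocyte-leaning group and all 17 above equality. Irf8 stood at 225 CPM there and 31.2 in the neutrophil-leaning group, Ly86 at 87.2 and 5.53, and F13a1 at 172 and 52.2. Klf4 was 16.4-fold higher, the lysosomal protease gene Ctss 9.53-fold, Csf1r 5.99-fold, Ccr2 2.75-fold and Ly6c2 1.63-fold.

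Genes on neither list divided too. Of 4681 with a mean of at least 20 CPM, 25 were at least 2-fold higher in the neutrophil-leaning group (0.534%) and 25 in the monocyte-leaning group (0.534%). These shares are for groups of the full score, and none is given at the 5 CPM level of the list genes. Cd63 stood at 310 and 37.8 CPM (8.20-fold, or 4.63-fold after thinning). The cytotoxic granule gene Nkg7 stood at 669 and 234, the ubiquitin ligase Nedd4 was 3.33-fold higher and the vesicle GTPase Rab38 2.60-fold. Mcpt8 stood at 114 and 46.0. On the monocyte side the Fc receptor gamma chain Fcer1g stood at 259 and 75, the granule protease activator Ctsc at 93.8 and 28.7, the galectin Lgals1 at 989 and 422, and vimentin (Vim) was 2.15-fold higher.

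Other values moved with the leaning. Median Elane was 27.9 per 10000 in the neutrophil-leaning group, 10.9 between and 9.93 in the monocyte-leaning group, and median UMIs were 31782, 31339 and 35561. Cells rich in basophil and mast genes numbered 24 (5.27%), 24 (5.26%) and 2 (0.440%). With all members rich in those genes left out, the neutrophil-leaning and monocyte-leaning counts past 2-fold stayed within 1.5 times of 25 each. Beyond that their part in the leaning was not tested.

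Irf8 and the neutrophil factors were found together in some cells. After thinning, Irf8 was seen in 23.1% of the 216 KO members with a Gfi1 UMI and in 40.0% of the 1150 without (62.0% and 78.4% before thinning). It was seen in 14.7% of the 170 members with a Cebpe UMI and in 40.6% of the 1196 without (54.7% and 77.7% before). In erythroid-rich cells the thinned share with an Irf8 UMI was 2.53%.

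**Figure D5:**
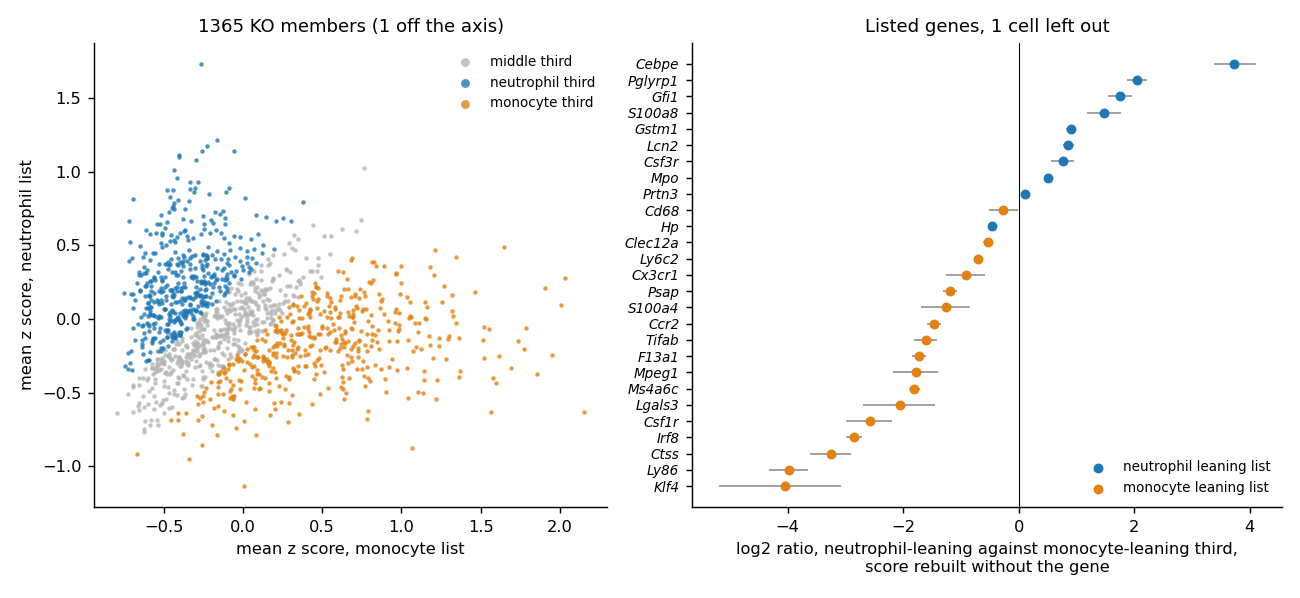
Left, neutrophil against monocyte score of 1365 KO members, with the S100a8-rich cell beyond the axis. Right, log2 ratio of the neutrophil-leaning to the monocyte-leaning group for each list gene left out of its own score, without that cell: Cebpe lies highest and Klf4 and Ly86 lowest.

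Scored on the KO scale at equal depth, the median leaning was 0.01 in KO, -0.04 in DKO and -0.08 in WT members. The KO limit on the monocyte side was passed by 36.3% of DKO and 38% of WT members, and that on the neutrophil side by 26.2% and 22%, against 33.3% of KO members on each side by construction. The WT shares rest on 100 cells, with intervals of 28.5 to 48.3 and 14.3 to 31.4. The DKO intervals were 32.0 to 40.9 and 22.3 to 30.5, and the first covers the KO share. Without thinning, the monocyte and neutrophil limits were passed by 29.6% and 29.0% of DKO members and by 38.2% and 16.7% of WT members.

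Cycling was read at 5500 UMIs per cell, a cell being called when genes of S phase or of G2 and M phase passed 0.5% of its UMIs. The call was met by 32.4% of KO members (29.95 to 34.99) and 35.5% of other KO cells (33.9 to 37.1), or 27.3% and 33.9% without thinning. In the other libraries members stood above the other cells, with 50.5% against 37.3% in DKO (45.9 to 55.2 against 36.2 to 38.4) and 36% against 27.0% in WT (26.6 to 46.2 against 26.0 to 28.0). Of KO Elane-high cells 35.9% met it. Within KO members it was met by 27.3% of the neutrophil-leaning, 30.7% of the middle and 39.3% of the monocyte-leaning group. In each library the order of members and other cells depends on the limit. At 0.3% the shares were 88.7% and 67.0% in KO, 84.9% and 57.9% in DKO, and 74% and 46.5% in WT. At 1% they were 0.366% and 5.94% in KO, 6.45% and 8.41% in DKO, and 5% and 5.70% in WT. Of 30 S phase genes 1, Rrm2, was at least 2-fold higher in KO members, and of 30 G2 and M genes none.

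Members of different libraries were set side by side at a mean of at least 50 CPM. KO members exceeded WT members by at least 2-fold in 40 of 2474 genes (1.62%) and were below by as much in 42 (1.7%), or 61 and 32 with TMM. Against DKO members, 36 of 2531 were higher (1.42%) and 69 lower (2.73%), or 70 and 47 with TMM. Without members rich in basophil and mast genes the counts were 44 and 45 against WT and 36 and 70 against DKO. Both comparisons use the same KO members, and the members are fewer, shallower and nearer the limit in WT and DKO.

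Tfrc stood at 115 CPM in KO members, 17.5 in DKO and 7.81 in WT. Lcn2 in KO members was 9.44-fold above WT members and 7.67-fold above DKO members, and the metallothionein Mt1, at 627, 95.6 and 106 CPM in KO, DKO and WT, stood out likewise. Trem3 was 6.56-fold and 3.98-fold higher. With WT and DKO members weighted to the Elane bins of KO, Trem3 was 4.21-fold and 2.53-fold higher, Mt1 3.95-fold and 4.24-fold, Lcn2 4.92-fold against DKO and Ccr2 3.53-fold against WT (6.34-fold unweighted). On the lower side, Apoe was 19.2-fold and Lsp1 4.86-fold lower than in WT members, and the immediate early gene Fos 4.19-fold lower than in WT and 6.71-fold lower than in DKO. Prss34, lowest against WT members, rests on the 1 WT cell described above. Sox4 was 3.57-fold lower than in WT, and Ctla2a 5.53-fold (3.45-fold with that weighting) and the adhesion receptor Adgrg1 3.73-fold lower than in DKO. The mast cell protease Cpa3 was 8.40-fold lower than in DKO, or 5.07-fold without members rich in basophil and mast genes.

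Stem genes were lower in KO members than in WT members in 11 of 16 (median -1.27) and than in DKO members in 9 of 14 (median -1.36). Folding genes were higher in 2 of 23 and 5 of 23. At the 5 CPM level of these lists, 2.38% of genes were higher and 5.54% lower against WT, and 1.94% and 5.72% against DKO. Basophil and mast genes were lower in KO members in 4 of 6 against WT and 6 of 7 against DKO.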

How the data were processed

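Polyadenylated RNA of sorted LSK cells was read in 3 Chromium 3' v2 libraries, 1 per genotype. The deposited table holds UMI counts of 14721 genes in 21251 cells that the authors kept, aligned to mm10. Of tools, bcl2fastq, Cell Ranger and Seurat appear in the submitters' processing notes. Their roles and versions and the filters on cells are not given in the sources used here. The authors' normalized table was not used. Counts were summed over cells and divided by their total to give counts per 1000000 UMIs (CPM). Genes were compared at a mean of at least 20 CPM (5 CPM for lists, 50 CPM between libraries and for naming) and called at 2-fold, with no test because each genotype has 1 library. The members and lists were chosen with earlier results of these data known.

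Genes were named by rank: the 15 highest and 15 lowest ratios of KO members to other KO cells, up to 5 per list with ratios farthest from 1, the marker genes, Spop and Myd88, the left-out leaning genes with 10 others each way, the 10 highest and lowest against Elane-high cells and the 5 highest and lowest between libraries. These ranks skip sex-linked, globin, mitochondrial, ribosomal protein and predicted genes. Some genes that these ranks pick are not reported here. Other genes were chosen after their values were seen. There were 12 gene groups and 13 marker lists. Leaning genes needed a UMI in 2% of KO members. Thinning to 5500 UMIs used seed 7.

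Scrublet in scanpy 1.11.5 called 0.793% of KO cells and under 0.5% of WT and DKO cells, which was not usable, and no cell was removed. The highest scores were dropped as an alternative, at 0.8% per 1000 cells. Other alternatives were edgeR 4.0.16 TMM and median-ratio scaling, other limits, equal weight per cell, thinning and other comparison cells. Python 3.11.15, numpy 2.4.6, scipy 1.17.1, pandas 2.3.3, matplotlib 3.10.9 and R 4.3.3 were used. The calculations were tested on simulated data. Gene names are those of the table, and promoter windows come from RefSeq (GRCm38.p6), the assembly that mm10 represents. In GENCODE vM21 on GRCm38, Elane lies at chr10:79886247-79888215, Ctsg at chr14:56099881-56102574 and Ms4a3 at chr19:11629496-11640851. The RefSeq window of Elane ends at 79886311, inside that gene span, so its last part is not upstream of the GENCODE start.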

Additional observations from a re-analysis of the deposited data

How the results depend on the processing

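No paired analysis was possible because each genotype has 1 library. The share of KO cells that were members was 34.7%, 30.7% and 22.8% at sum limits of 10, 15 and 30, and 26.0% at an Elane limit of 50. For KO members against other KO cells (107 genes higher, 227 lower), TMM gave 169 higher, median ratios 185 higher, others with a sum under 5 199 higher, 5 CPM 192 and 685, 50 CPM 62 and 69, no level filter 495 and 2777, a fold of 1.5 462 and 483, and a fold of 3 37 and 101. Against Elane-high cells (46 and 105), thinning gave 125 higher, 5 CPM 202 and 198, 50 CPM 16 and 53, no filter 926 and 1679, fold 1.5 252 and 240, and fold 3 13 and 38. Against WT members (40 and 42), TMM gave 61 higher, median ratios 62, thinning 61, 5 CPM 201 and 467, no filter 475 and 2962, fold 1.5 315 and 172, and fold 3 10 and 9. Against DKO members (36 and 69), TMM gave 70 higher, median ratios 73, 5 CPM 164 and 483, no filter 525 and 2123, fold 1.5 228 and 240, fold 3 12 and 15, and weighting to the Elane bins of KO 20 and 43. Across the leaning (25 and 25), 15 genes were higher on the monocyte side without cycling cells. Cycling KO members were 88.7% at 0.3% of UMIs, 0.366% at 1% and 27.3% unthinned. The globin Hba-a1 turned from lower to higher in KO members (log2 ratio 0.36) without others whose erythroid genes passed 0.3%, a limit chosen after seeing the data. Leaving out the S100a8-rich member or the members rich in basophil and mast genes was also chosen after seeing the data. Lower fold limits and level filters admit more genes by construction, and for the other settings the cause was not tested. Of 1771 single-gene values, 1024 stayed within their counting interval. Intervals cover counting error only, and the 102 WT members, with 1664643 UMIs, limit every value set beside them.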
